A study of Mus musculus with 10 samples.

Results

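Cells labelled cardiomyocytes that had spent 72 h in 5 nM TCDD were compared with cells of the same label that had spent 24 h in the vehicle, DMSO. Each group held 2 libraries of polyadenylated RNA, and the comparison was made across all genes of the count table. The 4 libraries were chosen by their treatment and time labels from 10 in the series. Of the other 6, 2 came from undifferentiated embryonic stem (ES) cells without treatment, 2 from cells given TCDD for 24 h and 2 from cells given it for 96 h. All cells derived from a mouse C57BL/6N ES line selected in G418, which carries a plasmid in which the Nkx2.5 promoter, that of a cardiac transcription factor, drives puromycin resistance and GFP. Differentiation had been done without LIF, first with Noggin and then with BMP4, followed by puromycin, so the cells of both groups had been selected for activity of that promoter. Both groups had DMSO in the medium. The only vehicle control was taken at 24 h, so that exposure and time in culture differ together in this comparison and cannot be told apart. The labels do not say that the libraries of a group came from separate cultures, so p-values reflect how far 2 libraries of a group differ, possibly for technical reasons only.

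TCDD is a chlorinated dioxin that binds the aryl hydrocarbon receptor (AHR), a transcription factor held in the cytoplasm with HSP90. The bound receptor enters the nucleus, pairs with ARNT and acts on genes that carry its response element, among them Cyp1a1, Cyp1b1, Nqo1, Tiparp and Ahrr. Tiparp and Ahrr encode feedback inhibitors of the receptor. Mouse ES cells are held in a naive pluripotent state by factors such as Klf4, Esrrb, Prdm14 and Nr0b1. When they leave it they pass through a formative state, in which Fgf5 and Pou3f1 come up while Pou5f1 stays on, before germ layers form.

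The promoters of Cyp1a1 and Cyp1b1 are shown because they are the AHR target genes with the smallest p in the comparison. Both are RefSeq windows of 300 bases in build GRCm38.p6, written in the direction of transcription, from 250 bases before the transcription start to 50 bases after it. Capitals mark GCGTG, the core of the AHR response element, or CACGC, the same core on the opposite strand. The Cyp1a1 window is chr9:57697363-57697662 on the plus strand and holds the core at 1 place, beginning 54 bases before the start. The Cyp1b1 window is chr17:79715012-79715311 on the minus strand and holds it at 1 place on the opposite strand, 76 bases before the start.
Cyp1a1: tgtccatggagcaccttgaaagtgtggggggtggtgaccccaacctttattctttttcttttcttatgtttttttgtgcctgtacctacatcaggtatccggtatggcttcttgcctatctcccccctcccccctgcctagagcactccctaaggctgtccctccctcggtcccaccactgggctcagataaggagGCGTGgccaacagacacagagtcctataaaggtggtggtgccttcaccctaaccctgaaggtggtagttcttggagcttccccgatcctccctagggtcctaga
Cyp1b1: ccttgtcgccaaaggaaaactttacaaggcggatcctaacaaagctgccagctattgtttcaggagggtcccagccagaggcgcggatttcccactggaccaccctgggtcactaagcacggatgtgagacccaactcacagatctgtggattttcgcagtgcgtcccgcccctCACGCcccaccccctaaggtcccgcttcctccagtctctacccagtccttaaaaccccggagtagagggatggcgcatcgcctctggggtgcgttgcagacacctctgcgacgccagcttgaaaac
A match to these 5 letters is common. The match alone does not show a site bound by the receptor, and bases further upstream were not searched. Of the 15175 genes tested, 11934 had a RefSeq window, and 54.0% of these genes held the core on either strand in any of their windows. It was present in 5 of the 6 AHR target genes with a window (83.3%), with none in Nqo1. Genes called on the 8 cardiomyocyte libraries, a fit given below, had smaller shares than all genes. The core was in 53 of 113 called higher with a window (46.9%) and in 46 of 104 called lower (44.2%). No promoter window was printed for the 6 genes called lower on 10 libraries. Of these, 4 had a window, with the core in Nr0b1 and Aurkc and not in Inhbb and Klf4.

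The labelled cell type was checked against its markers, which go against it. Nkx2-5, the gene whose promoter drove the selection, had 1.01 and 1.05 CPM (counts scaled to library size with TMM factors) in the DMSO libraries and 1.97 and 2.48 in the TCDD 72 h libraries. Tnnt2, the cardiac troponin T gene, had 0.336 and 0.717 CPM in DMSO and 0.19 and 0.399 at 72 h. Mean levels were under 1 CPM for 9 of 25 sarcomere genes in DMSO and for 11 at 72 h, and for 9 and 10 of 20 cardiac transcription factors. Means over 10 CPM were found for 4 and 5 of the sarcomere genes and for 2 and 2 of the transcription factors. Summed over the 25 sarcomere genes, the level was 614.2 and 629.4 CPM in DMSO and 592.8 and 684.6 at 72 h. All 10 core pluripotency genes had means over 10 CPM in both groups, and Pou5f1, which encodes Oct4, stood at 1039 and 985 CPM in DMSO and 806 and 946 at 72 h. Smooth muscle and simple epithelial genes were present, with 8 of 13 and 13 of 15 over 10 CPM in DMSO. The groups are therefore named below by treatment and time only. In bulk RNA, fewer cells of a type and less RNA per cell cannot be told apart.

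The DMSO libraries held 31192459 and 19744037 counts in named genes and the 72 h libraries 15326612 and 21727599. A count of 0 allows a level of up to 0.0962 to 0.196 CPM in these 4 libraries, from counting error alone and on unscaled library sizes. The replicates of the 2 groups were unequal in likeness. Of the 15175 genes tested, 194 (1.28%) differed at least 2-fold between the DMSO libraries and 1732 (11.4%) between the TCDD 72 h libraries, 1364 of them higher in replicate 1. In that library Rn45s, the ribosomal RNA precursor, took 10.95% of counts, against 1.447 to 4.221% in the 9 others. Levels of genes are therefore given per library. A list's median log2 fold change is followed in parentheses by the median without TCDD 72 h replicate 1 and then by that without replicate 2.

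Across all genes, 7 of 15175 passed the test in TCDD 72 h against DMSO 24 h (0.0461%) by edgeR's quasi-likelihood test on the 10 libraries, at a Benjamini-Hochberg adjusted p under 0.05. One gene rose (0.00659%), Cyp1a1. The number that fell was 6 (0.0395%): Inhbb, Klf4, Prdm14, Aurkc, Nr0b1 and Cdyl2. Without adjustment, 2215 genes were at p under 0.05. The median log2 fold change over all genes tested was 0.03. The median standard error was 0.30 on the log2 scale, estimated over all 5 groups with 5 residual degrees of freedom. In 4397 genes (29%) both 72 h libraries lay above both DMSO libraries, and in 4037 (26.6%) both lay below. With a change of at least 2-fold added, these shares were 6.98% higher and 2.04% lower.

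The number of calls differed widely between fits. The fit on 10 libraries also draws its estimate of spread from the ES pair. The SD of the log2 difference between replicates was 0.854 for ES, the largest of any group, 0.682 for TCDD 72 h and 0.271 for DMSO. The part of the ES pair in the number of calls was not tested. With the 8 cardiomyocyte libraries alone, 288 of 15045 genes passed (1.91%), 155 higher (1.03%) and 133 lower (0.884%). DESeq2 passed 276 of 14988 (1.84%), 147 higher (0.981%) and 129 lower (0.861%). It shared 221 of its calls with that fit, 80.1% of the DESeq2 calls and 76.7% of the 288. The 7 genes above passed in both. None of the 7 passed when DMSO replicate 1, DMSO replicate 2 or TCDD 72 h replicate 1 was left out, where edgeR passed 0 genes each time, and 969 genes passed without TCDD 72 h replicate 2. Below, a gene is said to have risen or fallen only if it passed on 10 libraries, and a pass on the 8 cardiomyocyte libraries is named as such.

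Among AHR target genes, Cyp1a1 rose about 14-fold and no other passed. Cyp1a1 (Entrez 13076, mm10 chromosome 9, 57697613 to 57703824) encodes the cytochrome P450 that oxidises polycyclic hydrocarbons and is the classical readout of the receptor. It had 1.25 and 0.956 CPM in the DMSO libraries and 14.4 and 17.5 in the TCDD 72 h libraries. The groups were far apart and the 72 h libraries close together. Group means were 1.1 ± 0.21 and 15.96 ± 2.19 CPM (SD, n = 2 each). The fitted fold change was 14.2, a log2 fold change of 3.83 ± 0.37 (SE), with an edgeR adjusted p of 0.0134. At 61 counts over the DMSO libraries and 622 over the 72 h libraries, Cyp1a1 stayed a low transcript in both.

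**Figure D1:**
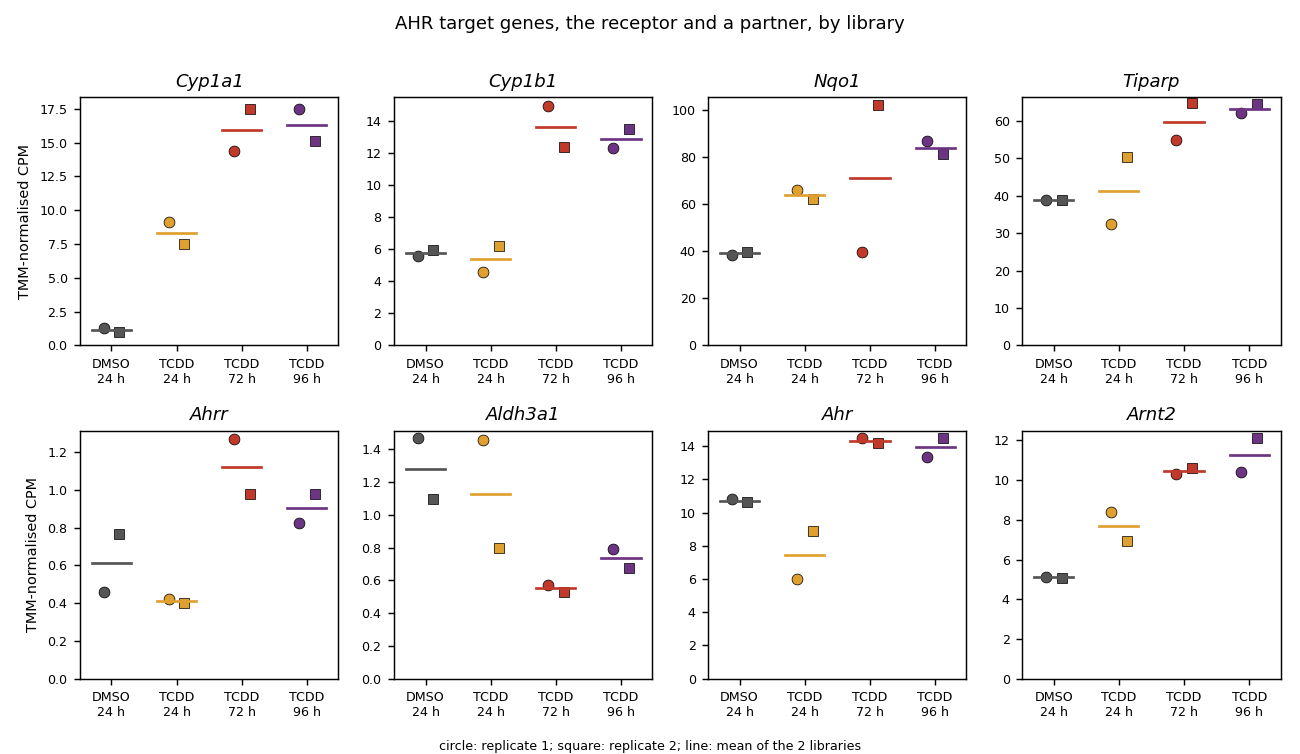
CPM of 6 AHR target genes, of Ahr and of Arnt2 in the DMSO 24 h and TCDD 24, 72 and 96 h libraries, each axis from 0, with circles for replicate 1, squares for replicate 2 and a line at the mean of the 2 libraries. Cyp1a1 lies between 14.4 and 17.5 CPM at 72 h against 0.956 and 1.25 in DMSO, while the 2 libraries at 72 h part widely for Nqo1.

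Of 12 AHR target genes listed, 7 passed the filter on low counts, and 3 of the other 5 had no count in any of the 4 libraries. In 5 of the 7 both 72 h libraries lay above both DMSO libraries, against 29% of all genes, and in 1 below, against 26.6%. The median log2 fold change of the 7 was 0.86 (0.97, 0.48). Cyp1b1, a related hydrocarbon-oxidising cytochrome, had 5.56 and 5.97 CPM in DMSO and 14.98 and 12.4 at 72 h, with no overlap. Its log2 fold change of 1.24 ± 0.26 did not pass (edgeR adjusted p 0.107), and passed on the 8 cardiomyocyte libraries (0.0327). Nqo1, a quinone reductase under both AHR and NRF2, had 38.5 and 39.7 CPM in DMSO but 39.7 and 102 at 72 h. One 72 h library thus stood at the DMSO level and the other far above it, and the log2 fold change was 0.86 ± 0.36 with both and 1.38 without replicate 1 (adjusted p 0.313 with both in edgeR). Tiparp, a mono-ADP-ribosyltransferase, had 38.8 and 38.7 CPM in DMSO and 54.96 and 64.6 at 72 h (edgeR adjusted p 0.63). Ahrr, the receptor's repressor, was under 1.3 CPM in all 4 libraries, with 0.458 and 0.765 in DMSO and 1.27 and 0.975 at 72 h. Aldh3a1, an aldehyde dehydrogenase induced by dioxin in other tissues, was the exception in direction, with 1.47 and 1.1 CPM in DMSO and 0.571 and 0.532 at 72 h (log2 fold change -1.23 ± 0.42, edgeR adjusted p 0.233).

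The receptor and its partners gave no call on 10 libraries. Ahr itself had 10.8 and 10.6 CPM in DMSO and 14.5 and 14.2 at 72 h, a log2 fold change of 0.42 ± 0.43 (edgeR adjusted p 0.73). Arnt2, a relative of Arnt that also pairs with the receptor, had 5.13 and 5.07 CPM in DMSO and 10.3 and 10.6 at 72 h. Its log2 fold change was 1.03 ± 0.21, with an edgeR adjusted p of 0.107 on 10 libraries and 0.0412 on 8. The groups were well apart, and it was the sole one of the 11 receptor and partner genes to pass on the 8, where 1.03% of all genes passed as higher. Arnt had 82.9 and 86.1 CPM in DMSO and 69.1 and 73.8 at 72 h. Hsp90ab1, the chaperone that holds the receptor, had 6345 and 6408 CPM in DMSO and 4127 and 5585 at 72 h. The median log2 fold change of the 11 was -0.24 (-0.16, -0.31).

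The 6 genes that fell were 3 naive pluripotency factors, a subunit of activin and 2 further genes. Inhbb (Entrez 16324, mm10 chromosome 1, 119415463 to 119422248) encodes the beta-B subunit that makes up activin B and inhibin B. It had 9.9 and 10.04 CPM in DMSO and 0.825 and 0.842 at 72 h, the largest fall of the 6. The libraries within each group were nearly equal, and the fitted fall was 11.9-fold (log2 fold change -3.57 ± 0.34, edgeR adjusted p 0.0134), on 534 counts against 32. Klf4 (Entrez 16600, mm10 chromosome 4, 55527137 to 55532475), a zinc-finger factor of the naive state, had 40.3 and 46.1 CPM in DMSO and 9.9 and 8.02 at 72 h. The groups did not overlap, and the fitted fall was 4.82-fold (log2 fold change -2.27 ± 0.22, edgeR adjusted p 0.0134).

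Prdm14 (Entrez 383491, mm10 chromosome 1, 13113428 to 13127163) represses differentiation genes and de novo DNA methylation in naive and germ cells. It had 11.3 and 11.1 CPM in DMSO and 2.92 and 3.15 at 72 h, with almost no spread within a group. The fitted fall was 3.69-fold (log2 fold change -1.89 ± 0.20, edgeR adjusted p 0.0176). Nr0b1 (Entrez 11614, mm10 chromosome X, 86191775 to 86195946), the orphan nuclear receptor DAX1, had 28.3 and 25.9 CPM in DMSO and 6.22 and 8.38 at 72 h. All 72 h values lay far under the DMSO values, with a fitted fall of 3.7-fold (log2 fold change -1.89 ± 0.22, edgeR adjusted p 0.0285).

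Cdyl2 (Entrez 75796, mm10 chromosome 8, 116568724 to 116732991), a chromodomain protein of the family that reads methylated histone H3, had 20.9 and 19.1 CPM in DMSO and 4.0 and 4.92 at 72 h. The groups were separate, with a fitted fall of 4.47-fold (log2 fold change -2.16 ± 0.25, edgeR adjusted p 0.0288). Aurkc (Entrez 20871, mm10 chromosome 7, 6995385 to 7003091), a kinase of the chromosomal passenger complex best known from meiosis, had 4.68 and 4.11 CPM in DMSO and 0.381 and 0.532 at 72 h. It was the lowest of the 6, with 239 counts over the DMSO libraries and 18 over the 72 h libraries (log2 fold change -3.23 ± 0.34, edgeR adjusted p 0.0176). It lay under the 5 CPM set for naming and is named because it passed.

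**Figure D2:**
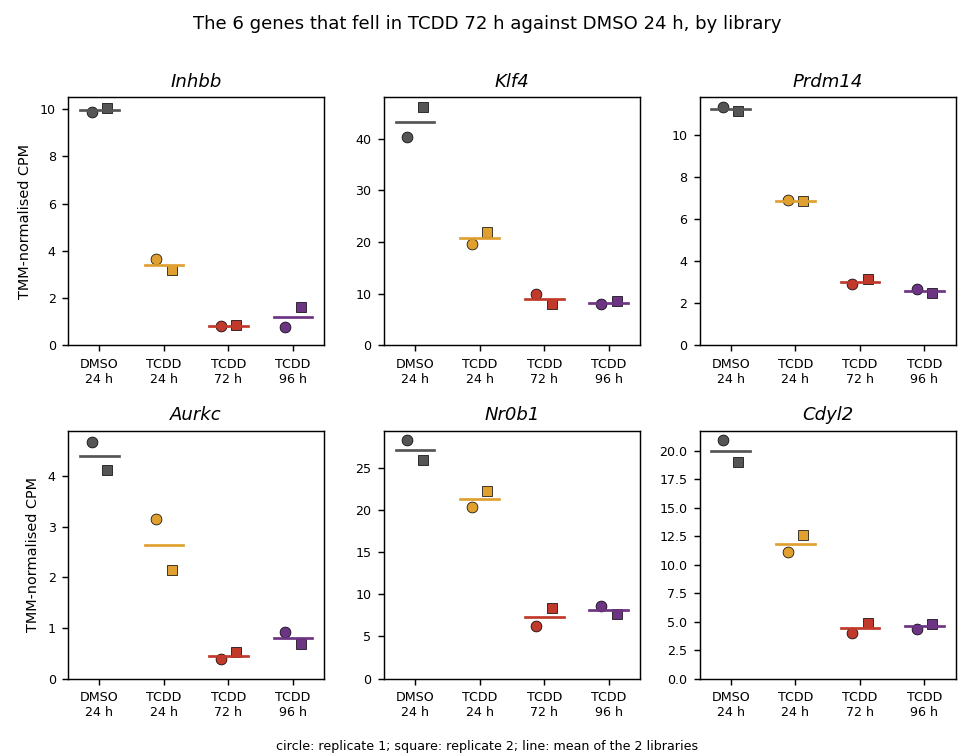
CPM of the 6 genes that fell, in the DMSO 24 h and TCDD 24, 72 and 96 h libraries, each axis from 0, with circles for replicate 1, squares for replicate 2 and a line at the mean. For each gene both 72 h libraries lie under both DMSO libraries, as for Klf4 with 8.02 and 9.9 against 40.3 and 46.1 CPM.

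The fall in Klf4, Prdm14 and Nr0b1 stood within a lower level of nearly the whole naive pluripotency list. In 16 of its 17 genes both 72 h libraries lay below both DMSO libraries, against 26.6% of all genes, and in 9 the change was also at least 2-fold, against 2.04%. The median log2 fold change was -1.05 (-1.02, -1.11) beside 0.03 over all genes. Summed over the 17, the level was 2631 and 2494 CPM in DMSO and 1349 and 1558 at 72 h. On the 8 cardiomyocyte libraries 8 of the 17 passed, all lower, against 0.884% of all genes. Besides the 3 above these were Stat3, Esrrb, Klf2, Tcl1 and Tfcp2l1, the last 4 of which are named because they passed there and not by the naming rule.

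Stat3, which carries the LIF signal, had 44.2 and 46.5 CPM in DMSO and 21.4 and 22.5 at 72 h (log2 fold change -1.05 ± 0.18, edgeR adjusted p 0.0951 on 10 libraries and 0.023 on 8). Esrrb, an orphan nuclear receptor of the naive network, had 248 and 238 CPM in DMSO and 86.8 and 112 at 72 h (log2 fold change -1.28 ± 0.23). In both genes the 72 h libraries were close to each other and well under the DMSO libraries. Klf2 had 175 and 175 CPM in DMSO and 59.6 and 73.8 at 72 h, and Tfcp2l1 had 96.5 and 101 in DMSO and 45.8 and 47.3 at 72 h. Tcl1, a coactivator of AKT, had 24.9 and 25.4 CPM in DMSO and 7.81 and 12.4 at 72 h. The single gene of the list with overlapping groups was Gbx2, with 15.98 and 16.4 CPM in DMSO and 14.3 and 20.7 at 72 h (log2 fold change 0.11 ± 0.22).

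**Figure D3:**
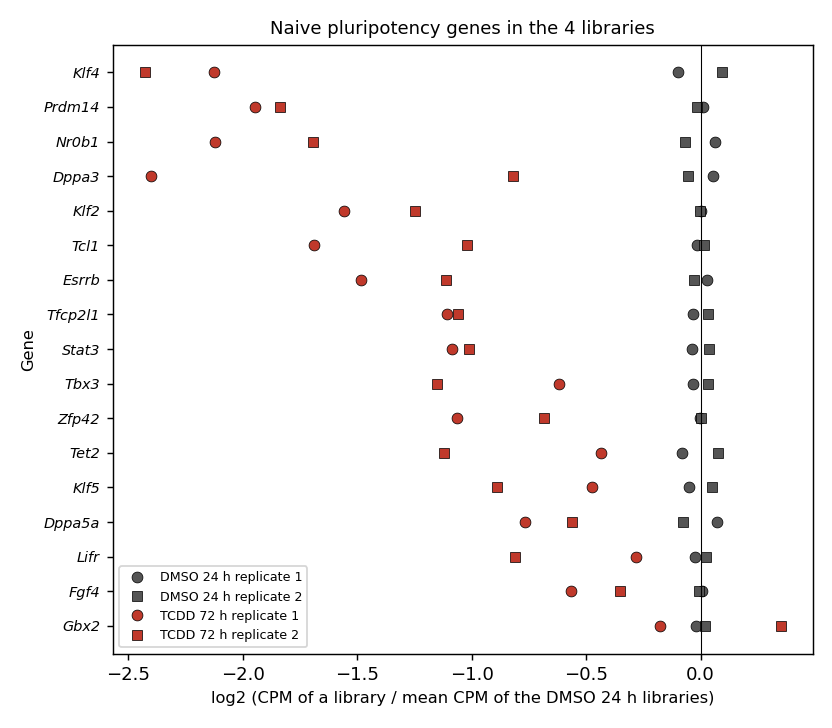
Log2 ratio of each DMSO 24 h and TCDD 72 h library to the mean DMSO CPM for the 17 naive pluripotency genes, ordered by fitted change, with circles for replicate 1 and squares for replicate 2. Both 72 h libraries lie left of both DMSO libraries in 16 genes, and Gbx2 is the exception.

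Core pluripotency genes stood less far from their DMSO level, and none of the 10 passed on 10 libraries. Both 72 h libraries lay below both DMSO libraries in 7 of them, against 26.6% of all genes, and the median log2 fold change was -0.27 (-0.26, -0.38). Nanog had 447 and 435 CPM in DMSO and 196 and 256 at 72 h (log2 fold change -0.96 ± 0.19, edgeR adjusted p 0.107 on 10 libraries and 0.0372 on 8). Sox2 had 438 and 451 CPM in DMSO and 237 and 259 at 72 h (log2 fold change -0.84 ± 0.20, edgeR adjusted p 0.135 and 0.0438). These were the 2 of 10 core genes that passed on the 8 cardiomyocyte libraries, where 0.884% of all genes passed as lower. Pou5f1, given above, had a log2 fold change of -0.21 ± 0.26 (edgeR adjusted p 0.794). Dppa2, which primes genes for activation in the early embryo, had 158 and 164 CPM in DMSO and 70.2 and 116 at 72 h. Zfp42, the REX1 gene that also belongs to the naive list, had 68.4 and 68.8 CPM in DMSO and 32.8 and 42.7 at 72 h.

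Formative and primed epiblast genes stood higher at 72 h. In 10 of 14 both 72 h libraries lay above both DMSO libraries, against 29% of all genes, and in 1 below, against 26.6%. Their median log2 fold change was 0.61 (0.37, 0.83). No member passed on 10 libraries and 5 passed on the 8 cardiomyocyte libraries, all higher, against 1.03% of all genes. Fgf5, the growth factor that marks the epiblast after implantation, had 22.9 and 23.6 CPM in DMSO and 65.4 and 59.6 at 72 h (log2 fold change 1.43 ± 0.27, edgeR adjusted p 0.106 on 10 libraries and 0.0208 on 8). Pou3f1, a POU factor of the epiblast, had 108 and 111 CPM in DMSO and 219 and 219 at 72 h (log2 fold change 1.0 ± 0.19). Both genes had groups that were tight and separate. Sall2, a zinc-finger factor, had 54.1 and 54.1 CPM in DMSO and 106 and 109 at 72 h (log2 fold change 0.99 ± 0.19). The fourth, Sox3, had 9.87 and 12.3 CPM in DMSO and 26.8 and 21.2 at 72 h.

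The fifth, T, encodes Brachyury, the T-box factor of the primitive streak. It had 2.23 and 2.34 CPM in DMSO and 27.4 and 7.14 at 72 h, so that the size of its difference depended on the library. The log2 fold change was 2.91 ± 0.56 with both and 1.64 without TCDD 72 h replicate 1 (edgeR adjusted p 0.107). Wnt3 and Mixl1, ligand and factor of the streak, were also higher in both 72 h libraries, more so in replicate 1. Wnt3 had 7.0 and 7.12 CPM in DMSO and 18.3 and 12.3 at 72 h, and Mixl1 0.672 and 0.908 in DMSO and 2.73 and 1.42 at 72 h. The median over 11 streak and mesendoderm genes was 1.04 (0.04, 1.47), so it was near 0 without replicate 1. In 4 of them both 72 h libraries lay above both DMSO libraries, against 29% of all genes, and in 1 below, against 26.6%. The fitted log2 fold change was above 0 in 9 and below 0 in 2, Foxa2 (-0.963) and Sox17 (-0.006). The de novo DNA methyltransferases of the epiblast list did not pass: Dnmt3b had 659 and 683 CPM in DMSO and 796 and 945 at 72 h, and Dnmt3a 514 and 529 in DMSO and 290 and 469 at 72 h.

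**Figure D4:**
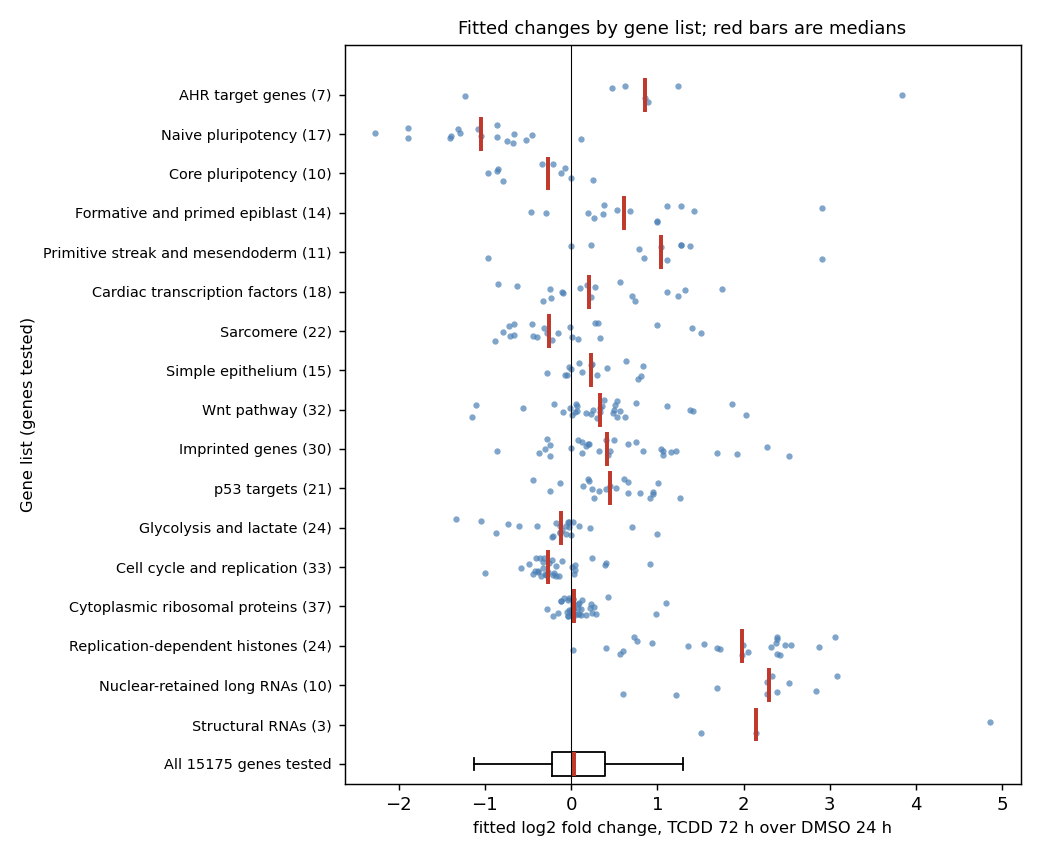
Fitted log2 fold change of TCDD 72 h over DMSO 24 h for the genes tested in 17 lists (points, 1 per gene, spread vertically at random) with the list median in red. The box at the bottom shows the median, quartiles and whiskers of 1.5 times the quartile range over all 15175 genes, whose median is 0.03, and the naive pluripotency median lies at -1.05.

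Among signalling genes, Inhbb was the single call and pathway members pointed in both directions. In the Nodal, activin and TGF-beta list, 1 of 22 genes fell, none rose, and the median log2 fold change was -0.07 (-0.12, 0.06). Lefty2, a secreted inhibitor of Nodal, had 98.04 and 87.1 CPM in DMSO and 50.6 and 42.3 at 72 h (log2 fold change -1.0 ± 0.21, edgeR adjusted p 0.107). Fst, whose product follistatin binds and blocks activin, had 3.48 and 3.58 CPM in DMSO and 17.6 and 6.83 at 72 h. Its 72 h libraries differed, and the log2 fold change was 1.78 ± 0.40 with both and 0.95 without replicate 1. Tgfb2 had 8.71 and 10.8 CPM in DMSO and 4.7 and 5.81 at 72 h.

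In the BMP list of 21 genes none passed and the median was 0 (-0.01, 0.06). The ligands Bmp4 and Bmp2 and an inhibitor were lower in both 72 h libraries. Bmp4, the factor used in the differentiation, had 13.3 and 16.1 CPM in DMSO and 7.11 and 5.76 at 72 h (log2 fold change -1.20 ± 0.31, edgeR adjusted p 0.155). Bmp2 had 3.21 and 3.97 CPM in DMSO and 2.03 and 1.91 at 72 h, and Nog, which encodes the BMP inhibitor Noggin, 3.42 and 3.97 in DMSO and 1.46 and 2.04 at 72 h. Msx1, a homeobox gene downstream of BMP, stood higher, with 1.01 and 1.2 CPM in DMSO and 7.24 and 4.83 at 72 h (log2 fold change 2.45 ± 0.33, edgeR adjusted p 0.0614). It was the gene of smallest p among the rises that missed the threshold.

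No Wnt gene passed, though more stood above DMSO than below it. In 15 of 32 both 72 h libraries lay above both DMSO libraries, against 29% of all genes, and the median log2 fold change was 0.34 (0.08, 0.40). Sp5, a transcription factor activated by Wnt signals, had 3.64 and 3.73 CPM in DMSO and 21.2 and 9.09 at 72 h (log2 fold change 2.03 ± 0.40, edgeR adjusted p 0.107). Wnt6 had 4.07 and 4.3 CPM in DMSO and 11.99 and 10.3 at 72 h (log2 fold change 1.41 ± 0.32). Both genes were higher in each 72 h library, with replicate 1 the higher of the 2. Frzb, a secreted Wnt antagonist, had 0.734 and 0.574 CPM in DMSO and 3.43 and 1.51 at 72 h.

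Notch and Hedgehog genes gave no call either. Of the Notch genes, the ligand Dll3 had 10.8 and 9.8 CPM in DMSO and 23.3 and 18.4 at 72 h, and the receptor Notch4 15.7 and 15.1 in DMSO and 8.12 and 3.99 at 72 h. They lay on opposite sides of DMSO in both 72 h libraries. Of the Hedgehog genes, the transducer Smo had 31.2 and 30.5 CPM in DMSO and 73.2 and 50.8 at 72 h, and the effector Gli1 61.5 and 62.9 in DMSO and 45.1 and 28.8 at 72 h. The median log2 fold changes were 0.42 (0.13, 0.55) over 15 Notch genes and -0.13 (-0.11, 0) over 10 Hedgehog genes. Over 21 genes of the FGF list it was -0.11 (-0.32, 0), over 17 of the retinoic acid list -0.04 (-0.13, -0.07) and over 14 YAP and TEAD targets 0.11 (0.06, -0.06), with no call in any of them.

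Most sarcomere and cardiac transcription factor genes stayed low, and none of the 22 sarcomere genes or 18 cardiac transcription factors tested passed. The medians were -0.25 (-0.14, -0.30) and 0.21 (0.20, 0.32) on the log2 scale. Nkx2-5 had a log2 fold change of 1.12 ± 0.42 (edgeR adjusted p 0.267) at the levels given above. Isl1, a factor of heart progenitors, had 0.336 and 0.239 CPM in DMSO and 0.825 and 1.15 at 72 h. The alpha-myosin gene Myh6 had 8.19 and 9.7 CPM in DMSO and 9.65 and 11.97 at 72 h with overlapping groups. The beta-myosin gene Myh7 had 9.78 and 9.32 CPM in DMSO and 2.98 and 8.91 at 72 h, where replicate 1 alone was far under DMSO. Ttn, the titin gene, showed the opposite, with 12.8 and 16.9 CPM in DMSO and 65.3 and 18.8 at 72 h, and its log2 fold change was 1.5 ± 0.78 with both libraries and 0.35 without replicate 1. The median was 0.45 (0.21, 0.66) over 14 calcium handling and channel genes and -0.33 (-0.09, -0.54) over 8 natriuretic peptide and cardiac stress genes, with no call in either.

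Markers of other cell types were read in the same libraries. Acta2, the smooth muscle actin, had 285 and 282 CPM in DMSO and 72.5 and 165 at 72 h (log2 fold change -1.26 ± 0.35, edgeR adjusted p 0.17), whereas Myl9, a smooth muscle myosin light chain, had 28.8 and 28.4 in DMSO and 36.4 and 56.2 at 72 h. Summed over 13 smooth muscle genes the level was 973.9 and 981.2 CPM in DMSO and 733.4 and 960.6 at 72 h. Mylpf, a fast skeletal light chain, had 177 and 162 CPM in DMSO and 49.6 and 73.8 at 72 h (log2 fold change -1.46 ± 0.30, edgeR adjusted p 0.107). Simple epithelial genes summed to 1878 and 1888 CPM in DMSO and 2658 and 2333 at 72 h, and in 8 of 15 both 72 h libraries lay above both DMSO libraries, against 29% of all genes. Krt8, a keratin of simple epithelia, had 475 and 468 CPM in DMSO and 1071 and 609.7 at 72 h, and the tight junction gene Cldn6 98.3 and 91.4 in DMSO and 184 and 149 at 72 h. No epithelial, smooth or skeletal muscle gene passed, and the part of cell mixture in the other results was not tested.

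Of 11 endothelial genes, 9 had a fitted log2 fold change above 0, with a median of 0.52 (0.30, 0.47). Pecam1, an endothelial adhesion gene, was 1 of the 2 below 0 and had 101 and 105 CPM in DMSO and 51.9 and 63.2 at 72 h, while Cdh5 had 0.947 and 0.908 in DMSO and 1.84 and 2.62 at 72 h and the VEGF receptor Flt1 7.64 and 8.08 in DMSO and 19.2 and 12.2 at 72 h. Of 10 blood and macrophage genes 8 were above 0, with a median of 0.37 (0.35, 0.51), and Runx1, a blood factor, was on the other side with 7.0 and 7.65 CPM in DMSO and 4.06 and 3.33 at 72 h. The median over 11 neural genes was 0.50 (0.38, 0.64), with 9 above 0 and 2 below, among them Tubb3 at -0.67. The summed level of the neural list was no higher at 72 h, with 200.1 and 197.5 CPM in DMSO and 170.3 and 196.5 at 72 h. Sox1 and Zic1 of that list were low but higher in both 72 h libraries, Sox1 with 3.73 and 4.01 CPM in DMSO and 7.62 and 6.21 at 72 h and Zic1 with 0.275 and 0.335 in DMSO and 1.27 and 0.975 at 72 h. Tfap2c, a factor of trophoblast and germ cells, had 114 and 111 CPM in DMSO and 38.3 and 51.1 at 72 h (log2 fold change -1.34 ± 0.22, edgeR adjusted p 0.0888). Its groups were far apart, but 7 of the 10 trophoblast genes were above 0 and their median was 0.16 (0.45, -0.20). Of mesothelial genes, Aldh1a2, which makes retinoic acid, had 3.03 and 2.48 CPM in DMSO and 0.698 and 1.06 at 72 h, and Wt1 10.7 and 11.3 in DMSO and 16.1 and 22.7 at 72 h.

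Matrix genes gave no call. Col1a2, a fibrillar collagen chain, had 21.3 and 23.03 CPM in DMSO and 7.55 and 3.19 at 72 h (log2 fold change -2.06 ± 0.38, edgeR adjusted p 0.105 on 10 libraries and 0.0284 on 8). Postn, the periostin gene, had 2.84 and 3.25 CPM in DMSO and 1.01 and 0.665 at 72 h. Has2, which makes hyaluronan, was higher, with 4.92 and 6.45 CPM in DMSO and 29.9 and 15.8 at 72 h (log2 fold change 2.01 ± 0.44, edgeR adjusted p 0.118). The gelatinase gene Mmp2 had 17.5 and 17.4 CPM in DMSO and 41.1 and 30.6 at 72 h, Fn1, the fibronectin gene, 568 and 617 in DMSO and 418 and 314 at 72 h, and the mesenchymal filament gene Vim 190.1 and 203 in DMSO and 99.9 and 148 at 72 h. The median was 0.05 (-0.09, -0.11) over 17 collagen genes and -0.03 (0, -0.07) over 22 other matrix genes.

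Among genes of DNA methylation, none of 20 passed and the median log2 fold change was -0.08 (-0.15, -0.10). Dnmt1, the maintenance methyltransferase, had 325 and 344 CPM in DMSO and 232 and 284 at 72 h (log2 fold change -0.37 ± 0.18, edgeR adjusted p 0.392). Tet1, which oxidises methylcytosine, had 233 and 249.6 CPM in DMSO and 305 and 206 at 72 h. Its 72 h libraries lay on either side of the DMSO libraries, and its log2 fold change was 0.08 ± 0.55 with both and -0.23 without replicate 1. Tet3 had 15.3 and 17.97 CPM in DMSO and 30.02 and 21.3 at 72 h, and the cytidine deaminase gene Apobec3 50.3 and 50.1 in DMSO and 34.1 and 32 at 72 h. Of 22 Polycomb genes none passed, and the median was 0.15 (-0.11, -0.08). Phf19, a Polycomb accessory protein, had 52.6 and 56.4 CPM in DMSO and 21.8 and 31.2 at 72 h (edgeR adjusted p 0.162 on 10 libraries and 0.046 on 8).

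Imprinted genes were higher in both 72 h libraries than in both DMSO libraries in 17 of 30, against 29% of all genes, with a median log2 fold change of 0.42 (0.19, 0.40) and no call. Meg3, Kcnq1ot1, Rian and Mirg of this list are also counted below among the nuclear-retained long RNAs. Grb10, which encodes an inhibitor of insulin signalling, had 9.05 and 9.18 CPM in DMSO and 18.7 and 19.6 at 72 h (log2 fold change 1.07 ± 0.18, edgeR adjusted p 0.0888 on 10 libraries and 0.0274 on 8). Nnat, the neuronatin gene, had 17.5 and 15.3 CPM in DMSO and 37.1 and 31.5 at 72 h (log2 fold change 1.06 ± 0.21). In both, the 72 h libraries were close together. The 21 Hox genes tested had a median of 0.42 (0.05, 0.49), at a summed level of 26.95 and 27 CPM in DMSO and 36.05 and 26.46 at 72 h.

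Metabolic genes gave no call in any list. Of 24 glycolysis genes, both 72 h libraries lay below both DMSO libraries in 9, against 26.6% of all genes, and above in 2, against 29%, and the median was -0.11 (0, -0.23). Pfkp, a phosphofructokinase, had 89.5 and 85.2 CPM in DMSO and 39.7 and 44.8 at 72 h (log2 fold change -1.05 ± 0.19, edgeR adjusted p 0.0951 on 10 libraries and 0.0234 on 8). Hexokinase gene Hk1 had 73.2 and 71.8 CPM in DMSO and 29.96 and 49.4 at 72 h, and the pyruvate dehydrogenase kinase Pdk1 154 and 149.9 in DMSO and 98.8 and 84.7 at 72 h. The lactate transporter Slc16a3 stood apart from them, with 123 and 117 CPM in DMSO and 299.7 and 179 at 72 h. Ak4, an adenylate kinase induced by hypoxia, had 208 and 197 CPM in DMSO and 63.6 and 120.4 at 72 h. Cpt1a, which carries fatty acids into mitochondria, had 16.4 and 15.2 CPM in DMSO and 9.14 and 10.6 at 72 h. The medians were -0.10 (0.24, -0.51) over 27 oxidative phosphorylation genes, -0.19 (0.03, -0.53) over 22 of fatty acid oxidation and -0.07 (-0.05, -0.05) over 21 of cholesterol synthesis.

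Stress and growth genes were likewise without a call. Targets of p53 were higher in both 72 h libraries in 14 of 21, against 29% of all genes, and lower in 3, against 26.6%, with a median of 0.45 (0.58, 0.30). Ddit4l, an inhibitor of mTOR signalling, had 9.29 and 8.22 CPM in DMSO and 15.9 and 26.2 at 72 h (log2 fold change 1.27 ± 0.27, edgeR adjusted p 0.107). Cdkn1a, which encodes the cell cycle inhibitor p21, had 103 and 104 CPM in DMSO and 204 and 186 at 72 h (log2 fold change 0.91 ± 0.26, edgeR adjusted p 0.177). Both genes passed on the 8 cardiomyocyte libraries (edgeR adjusted p 0.0399 and 0.0451). Zmat3 had 119 and 121 CPM in DMSO and 203 and 174 at 72 h, and Btg2 55.6 and 59.5 in DMSO and 80.6 and 102 at 72 h. Cell cycle genes were lower in both 72 h libraries in 20 of 33, against 26.6% of all genes, with a median of -0.26 (-0.10, -0.39). Ccnd3, a cyclin, had 256 and 246 CPM in DMSO and 109.9 and 142 at 72 h, and Mcm6, a subunit of the replicative helicase, 459 and 453 in DMSO and 266 and 381 at 72 h.

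The NRF2 list had a median of 0.27 (0.44, -0.04) over 21 genes, with the sign turned without replicate 2. Fth1, the ferritin heavy chain, had 739.9 and 718 CPM in DMSO and 1094 and 1858 at 72 h (log2 fold change 1.02 ± 0.30, edgeR adjusted p 0.181). Gclc, the rate-limiting enzyme of glutathione synthesis, had 86.6 and 94.6 CPM in DMSO and 126 and 146 at 72 h. Both 72 h libraries were above DMSO in each, with replicate 2 the higher. Ddit3, the stress factor CHOP, had 3.03 and 3.11 CPM in DMSO and 5.14 and 6.52 at 72 h, asparagine synthetase Asns 279.7 and 258 in DMSO and 135 and 184 at 72 h, and the heat shock gene Hsph1 428 and 418 in DMSO and 197 and 289 at 72 h. The immediate early factor Egr3 was near the detection limit in DMSO, with 0.183 and 0.143 CPM, and had 1.71 and 0.887 at 72 h. Oas1a, an antiviral synthetase induced by interferon, had 3.51 and 3.2 CPM in DMSO and 0.825 and 1.11 at 72 h. Ddit3 and Egr3 were thus higher, and Asns, Hsph1 and Oas1a lower, in both 72 h libraries. The medians were -0.11 (-0.04, -0.22) over 20 unfolded protein and amino acid response genes, 0.03 (0.05, -0.33) over 12 heat shock genes and 0.05 (-0.09, 0.28) over 17 interferon genes. They were 0.49 (0.42, 0.46) over 17 immediate early genes, 0.19 (0.26, 0.02) over 19 apoptosis regulators, -0.16 (-0.12, -0.33) over 19 hypoxia targets and 0.04 (0.27, -0.25) over 37 ribosomal protein genes, with no call in these 4 lists.

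The genes next in order of p did not pass and are given as values. Among those higher, Igdcc4, a cell surface protein of the immunoglobulin family, had 10.8 and 12.5 CPM in DMSO and 34.6 and 29.4 at 72 h (log2 fold change 1.45 ± 0.20, edgeR adjusted p 0.0614). Lrp2, the endocytic receptor megalin, was the most abundant, with 197 and 218 CPM in DMSO and 660.4 and 466 at 72 h (log2 fold change 1.44 ± 0.22, edgeR adjusted p 0.0737). St8sia3, a sialyltransferase, had 3.82 and 3.25 CPM in DMSO and 12.6 and 10.1 at 72 h, and Dab1, the adaptor of reelin signalling, 4.46 and 5.21 in DMSO and 13.96 and 13.2 at 72 h. In all of these the groups were separate. The matrix gene Efemp1 had 1.96 and 1.91 CPM in DMSO and 7.36 and 5.76 at 72 h, and the matrix protease gene Adamts15 3.76 and 3.73 in DMSO and 14.9 and 11.6 at 72 h. The neurofilament gene Nefm had 2.84 and 2.82 CPM in DMSO and 8.95 and 7.71 at 72 h.

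Among those lower, Manba, a lysosomal beta-mannosidase, was the most abundant, with 145 and 144 CPM in DMSO and 38.7 and 57.4 at 72 h (log2 fold change -1.59 ± 0.22, edgeR adjusted p 0.0614). Cpne5, a calcium-dependent membrane-binding copine, had 45.5 and 48.3 CPM in DMSO and 14.4 and 17.6 at 72 h (log2 fold change -1.55 ± 0.21, edgeR adjusted p 0.0614). Mymx, which encodes myomixer, a peptide of muscle cell fusion, had 19.2 and 21.6 CPM in DMSO and 6.22 and 6.03 at 72 h. The spread within each group was small beside these differences. Igfbp5, an IGF-binding protein, had 13.3 and 15.3 CPM in DMSO and 5.84 and 4.92 at 72 h, and Stmn2, a microtubule regulator of neurons, 69.2 and 72.5 in DMSO and 29.7 and 33.5 at 72 h. All 5 passed on the 8 cardiomyocyte libraries, with edgeR adjusted p from 0.0094 to 0.0209.

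RNA classes listed as signs of RNA quality moved most in 1 library, TCDD 72 h replicate 1. Malat1, a nuclear long RNA, had 303 and 334 CPM in DMSO and 2777 and 418 at 72 h, and its log2 fold change was 2.33 ± 1.01 with both 72 h libraries and 0.39 without replicate 1. Neat1 had 29.4 and 30.7 CPM in DMSO and 259 and 32 at 72 h, and the imprinted long RNA Meg3 48.1 and 53.9 in DMSO and 509.7 and 78.4 at 72 h. In each of the 3, replicate 1 stood several-fold above replicate 2, which lay much nearer DMSO. Rmrp, the RNA of RNase MRP, had 3.45 and 3.39 CPM in DMSO and 194 and 4.74 at 72 h. Rn45s had 23650 and 22280 CPM in DMSO and 106500 and 24470 at 72 h. Miat was also higher in replicate 2, with 3.27 and 3.73 CPM in DMSO and 49.6 and 9.8 at 72 h (log2 fold change 3.08 ± 0.66 with both and 1.49 without replicate 1). The median over 10 nuclear-retained long RNAs was 2.30 (0.49, 3.09), and over 24 replication-dependent histone genes 1.99 (0.46, 2.69). Both 72 h libraries lay above both DMSO libraries in 9 of these long RNAs and 18 of these histone genes, against 29% of all genes. Histone gene Hist1h1e had 0.458 and 0.574 CPM in DMSO and 6.92 and 1.77 at 72 h. Without TCDD 72 h replicate 1 the log2 fold change of Cyp1a1 was 3.96 and that of Inhbb -3.56, beside 3.83 and -3.57 with it. The median of the naive pluripotency genes was -1.02 beside -1.05. The part of these RNA classes in any of the differences was not tested.

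**Figure D5:**
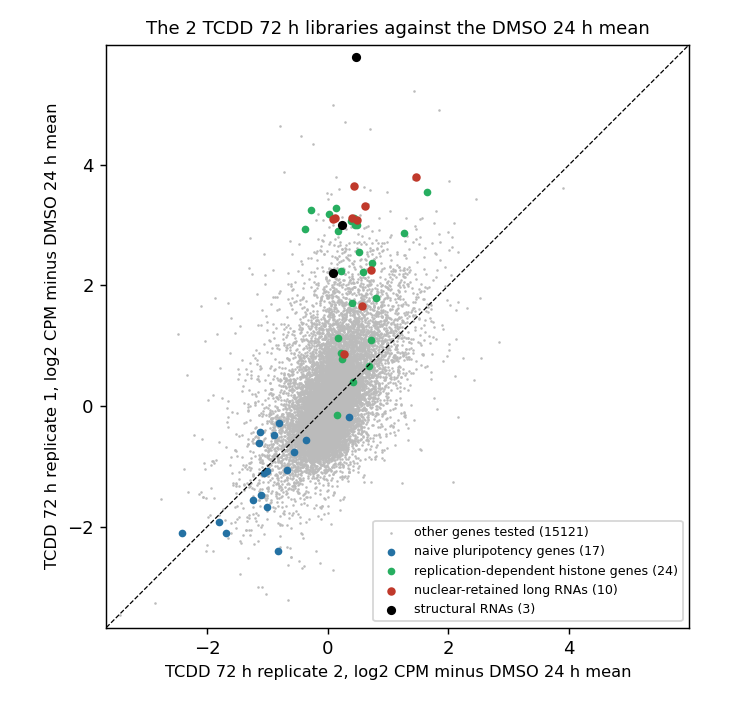
Log2 CPM (prior count of 2) minus the DMSO 24 h mean for each gene tested in TCDD 72 h replicate 1 (vertical axis) and replicate 2 (horizontal axis), with 4 lists in colour and a dashed line of equality. Nuclear-retained, structural and histone RNAs mostly lie far above the line, and the naive pluripotency genes lie in the lower left, below DMSO in both libraries except Gbx2.

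The other TCDD times share the DMSO libraries with this comparison, so their values are set side by side without a measure of likeness. Cyp1a1 had 9.14 and 7.5 CPM at 24 h and 17.5 and 15.1 at 96 h, beside 14.4 and 17.5 at 72 h. Klf4 had 19.7 and 22.03 CPM at 24 h and 7.94 and 8.51 at 96 h, and Inhbb 3.65 and 3.19 at 24 h and 0.791 and 1.62 at 96 h. All 3 lay between DMSO and 72 h at 24 h. Prdm14 had 6.91 and 6.85 CPM at 24 h and 2.7 and 2.49 at 96 h, Nr0b1 20.4 and 22.3 at 24 h and 8.63 and 7.65 at 96 h, and Cdyl2 11.1 and 12.6 at 24 h and 4.38 and 4.82 at 96 h. Esrrb had 257 and 214 CPM at 24 h, around the DMSO level, and 105 and 100.5 at 96 h. Cyp1b1 likewise had 4.61 and 6.23 CPM at 24 h and 12.3 and 13.5 at 96 h. The median log2 fold change against DMSO over the 17 naive pluripotency genes was -0.34 at 24 h, -1.05 at 72 h and -1.05 at 96 h.

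Whether a level at 72 h differed from that at 24 or 96 h of TCDD was tested directly. Between 72 and 24 h no gene passed in edgeR (smallest adjusted p 0.149, with 3285 genes at an unadjusted p under 0.05), while DESeq2 passed 557. Without TCDD 72 h replicate 2, 1442 genes passed in edgeR, and without replicate 1 none did. Between 96 and 72 h no gene passed in edgeR (smallest adjusted p 0.935, 710 genes at an unadjusted p under 0.05) or in DESeq2. Without TCDD 72 h replicate 2, 331 passed in edgeR. For Cyp1a1 the log2 difference between 72 and 24 h was 0.94 ± 0.32 (edgeR adjusted p 0.174), for Klf4 -1.22 ± 0.21 (0.149) and for Esrrb -1.24 ± 0.23 (0.149).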

How the data were processed

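Per the labels' protocols, TRIzol RNA was selected for poly(A) and sequenced as single reads from dUTP (strand-marking) libraries. Raw counts per gene, as whole numbers, were deposited by the authors. Of tools, bcl2fastq, CASAVA 1.8, TopHat and edgeR appear in the submitters' processing notes, with build mm10. The tool that counted reads per gene and its strand setting are not stated in the labels. The count table has 24541 rows, of which 1 without a gene name (at most 0.00285% of a library) was left out. Gene starts in the table count from 0 and are printed counted from 1: for 15063 of 24472 genes matched by Entrez identifier they are 1 less than the RefSeq start.

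The quasi-likelihood test of edgeR 4.0.16 (R 4.3.3) was fitted to all 10 libraries with TMM factors, a mean for each group and the default expression filter, which left 15175 genes (61.8%). Tests were two-sided with Benjamini-Hochberg adjustment over all genes tested. CPM used TMM-scaled library sizes. An error is the SD of 2 CPM values or, for a fitted log2 fold change, its SE. The script was tested on simulated counts with known changes. Recovery of the changes was required only at a spread set below that estimated here. The test therefore checks the code and gives no measure of power for this comparison. The members and the 53 gene lists were chosen with earlier results of these data known. The naming rule took a set of fixed genes. It added the 10 genes with the largest rise and the 10 with the largest fall among those that passed at a mean of 5 CPM or more with no overlap, filled up by smallest p. From each list it took at most 4 genes, those of smallest p. A few genes that the rule took are not reported here. The 9 mitochondrially encoded genes of 1 list were not analysed here. Alternatives were RLE and upper quartile scaling, other filters, DESeq2 1.42.0, limma-voom (limma 3.58.1), other sets of libraries, the replicate number as a block, a GC offset (loess span 0.3), removal of structural RNAs, a threshold of 0.01 and each library left out. Replicate numbers were not treated as pairs in the main fit.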

Additional observations from a re-analysis of the deposited data

Results flagged for a closer look

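For 15 of the 130 genes named, both TCDD 24 h libraries lay on one side of both DMSO libraries and both TCDD 72 h libraries on the other. None of these differences between 72 and 24 h passed in edgeR, with adjusted p from 0.149 to 0.244. The share of all genes with this pattern was not computed, so the 15 have no base rate. Separation from DMSO was common over the 15175 genes tested. It held for 5389 higher and 5007 lower at 24 h of TCDD, and for 4397 and 4037 at 72 h. Higher at 72 h than at 24 h were the receptor Ahr and its repressor Ahrr, by a log2 difference of 0.94 and 1.43, Sox1 by 1.14 and Tet3 by 0.93. The long RNAs Malat1, Neat1 and Meg3 were higher by 3.34, 3.16 and 2.79, with TCDD 72 h replicate 1 several-fold above replicate 2 in each. Lower at 72 h than at 24 h were Pou5f1 (log2 difference -0.64), the methyltransferases Dnmt1 (-0.48) and Dnmt3a (-0.81), Apobec3 (-0.84), Hk1 (-1.28), Asns (-0.98), Mcm6 (-0.56) and Hsp90ab1 (-0.78).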

How the results depend on the processing

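The count of 7 genes in TCDD 72 h against DMSO 24 h was 7 with RLE or upper quartile scaling, a filter of 1 CPM in 2 libraries, limma-voom, structural RNA genes removed, or a minimum of 2-fold. It was 59 with no filter on low counts, 276 with DESeq2, 288 on the 8 cardiomyocyte libraries and 436 with the GC offset. It was 0 on the 4 libraries alone, where the dispersion rested on fewer libraries, and 0 at an adjusted p under 0.01. Leaving out 1 library gave 0 to 969 genes: 0 without DMSO replicate 1, DMSO replicate 2 or TCDD 72 h replicate 1, and 969 without TCDD 72 h replicate 2, with the single library left in a group assumed to vary like the others. As alternatives chosen after seeing the data, 1967 genes passed without the 3 libraries that stand apart (TCDD 72 h replicate 1, TCDD 24 h replicate 1 and the second ES library) and 41 on the cardiomyocyte libraries without TCDD 72 h replicate 1. All 7 genes were among those called in every setting with calls. With the replicate number as a block, 0 genes passed, and with block and GC offset together 147. Whether the numbers pair the samples was not settled. The deviations of same-numbered DMSO and TCDD 72 h libraries correlated at -0.0463, but the DMSO libraries differed little from each other. Between other groups the correlation ran from -0.755 (ES and TCDD 24 h) to 0.448 (TCDD 24 h and TCDD 96 h). For 72 against 24 h, no gene passed in edgeR except 9 with no filter, 8 with the GC offset and 0 to 1442 on leaving out 1 library. DESeq2 passed 557, and the block gave 0. For 96 against 72 h the count was 0 under every alternative run except 0 to 331 on leaving out 1 library. Directions reversed for 3 of the named genes: on leaving out 1 library the log2 fold change ran from 0 to 1.38 for Nqo1 and from -0.20 to 0.35 for Gbx2, both lowest without TCDD 72 h replicate 2. For Tet1 it ran from -0.23, without TCDD 72 h replicate 1, to 0.31, and it was -0.23 on the cardiomyocyte libraries without that library and -0.24 without the 3 libraries. The causes were not tested. Of the other alternatives for named genes, 1874 kept direction and side of the threshold, 421 gained a call and 35 lost one.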

Other observations

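On the 8 cardiomyocyte libraries, 31 of the 288 genes that passed also passed when TCDD 72 h replicate 1 was left out of that fit, an alternative chosen after seeing the data. They included Cyp1a1 and the 6 genes that fell. The 9 genes described here were named after their values were seen, and none passed on 10 libraries. Prph and Dclk1 are known from neurons: Prph, the peripherin gene, had 9.23 and 8.55 CPM in DMSO and 16.4 and 23.7 at 72 h (log2 fold change 1.17 ± 0.28), and Dclk1, a microtubule-associated kinase, 0.795 and 0.956 in DMSO and 5.01 and 3.37 at 72 h. The ephrin receptor Ephb1 had 1.22 and 1.29 CPM in DMSO and 2.79 and 5.76 at 72 h, and the calcitonin receptor gene Calcr 0.397 and 0.574 in DMSO and 1.65 and 2.7 at 72 h. Trp73, the p53 relative, had 6.97 and 7.79 CPM in DMSO and 14.9 and 21.6 at 72 h (log2 fold change 1.31 ± 0.23). In all 5 both 72 h libraries were above both DMSO libraries.

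The matrix protein gene Mfap4 had 5.56 and 5.59 CPM in DMSO and 12.2 and 14.1 at 72 h, and the sulfotransferase gene Chst1 5.75 and 5.11 in DMSO and 13.4 and 16.1 at 72 h. Lower in both 72 h libraries were Bcl3, a nuclear partner of NF-kappa-B, with 12.9 and 12.2 CPM in DMSO and 4.38 and 2.93 at 72 h (log2 fold change -1.79 ± 0.32), and Gjb1, a gap junction gene, with 6.75 and 5.45 in DMSO and 2.22 and 1.15 at 72 h. At 96 h of TCDD, Bcl3 had 4.35 and 4.37 CPM and Trp73 20.5 and 18.8, beside the same DMSO libraries.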
